A study of Homo sapiens with 6 samples.

Results

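Aldehyde dehydrogenases were examined as 10 named members of the ALDH family (ALDH1A1, ALDH1A2, ALDH1A3, ALDH1B1, ALDH1L1, ALDH2, ALDH3A1, ALDH3A2, ALDH3B1 and ALDH8A1), found by gene symbol, each on 1 row, among 60623 genes of the deposited tables. The cells were PLC/PRF/5, an established line of human hepatocellular carcinoma, kept in DMEM with serum. In 3 libraries the label gives a lentivirus for ZFP64 overexpression (ZFP64-OE, called OE-labelled), and in the other 3 a control lentivirus. The latter are titled Control, are called EV-labelled here and are drawn as control in the figures. ZFP64 encodes a zinc finger transcription factor, and the series title places it between PKCα and CSF1 in the tumour's response to anti-PD1. Neither the promoter of the vector nor whether the cells were a clone or a pool is stated in the labels, and no label ties the replicates to separate cultures, so the p-values reflect library-to-library spread only, which may be technical.

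The label check went against the labels. ZFP64 was measured at 35.04, 35.6 and 31.5 CPM (counts relative to library size, scaled by TMM factors) in the OE-labelled libraries, against 142, 160.4 and 138 CPM in the EV-labelled ones, a log2 fold change of -2.11 (standard error 0.0867, edgeR adjusted p = 2.31e-12). Groups are therefore named by label, and each direction is that of OE-labelled relative to EV-labelled libraries. Library totals lay between 35109227 and 39739674 counts in the OE-labelled libraries and between 26468949 and 37466920 in the EV-labelled ones. Of 9 hepatocyte markers, 8 were tested, 4 rose (ALB, AFP, APOB and FGB), 2 fell (APOA1 and SERPINA1) and 2 did not pass. The remaining one, TTR, was near 0. The summed level of the 9 averaged 1877 ± 205 FPKM (fragments per kilobase of gene, relative to library total) with OE labels and 1794 ± 213 FPKM with EV labels. The sum hides opposite moves of its largest parts. APOB was at 964 ± 174 FPKM with OE labels against 573 ± 112 FPKM with EV labels, and SERPINA1 at 519 ± 45.7 FPKM against 934 ± 127 FPKM. Of 7 macrophage markers, 2 were tested and 1, LYZ, fell; their sum, nearly all LYZ, lay between 177 and 215 FPKM with OE labels and between 295 and 333 FPKM with EV labels, while PTPRC had no count. Of 7 fibroblast markers 1 of 3 tested (COL3A1) fell, of 6 endothelial markers 1 of 2 tested (PECAM1) fell, and of 6 lymphocyte markers 0 of 1 passed edgeR. The sums of these lists were 0.822 to 1.06, 0.493 to 0.752 and 0.492 to 0.592 FPKM with OE labels, against 1.36 to 1.46, 1.63 to 1.77 and 0.190 to 0.698 FPKM with EV labels, and COL1A2, KDR, TEK and MS4A1 had no count. The 13 mitochondrially encoded mRNAs, of which 5 rose, summed to between 36673 and 49500 FPKM with OE labels and between 22224 and 31478 FPKM with EV labels. The part of these differences in the results below was not tested.

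Aldehyde dehydrogenases oxidise aldehydes to carboxylic acids with NAD or NADP as cofactor. In liver they clear acetaldehyde made from ethanol, aldehydes made by lipid peroxidation and fatty aldehydes released from sphingolipids and plasmalogens, and they make retinoic acid from retinaldehyde. High ALDH1A1 activity is widely used as a mark of stem-like tumour cells.

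RefSeq promoter windows (GRCh38.p14, from 250 bases before to 50 bases after an annotated start) were found for 8 of the 10 members, all but ALDH2 and ALDH3A1. Those shown belong to ALDH1A1, the most abundant member, and to ALDH3A2 and ALDH3B1, the members that passed the test, so that a reader can see the sequence at the start of each. ALDH3A2 has a pair of annotated starts, both shown. The ALDH1A1 start lies 127389 bases inside the GENCODE v29 gene interval. For ALDH3B1 the one nearest to the GENCODE v29 gene start is shown. Capitals mark matches to 5 motifs searched on both strands.
ALDH1A1, chr9:72953004-72953303, minus strand: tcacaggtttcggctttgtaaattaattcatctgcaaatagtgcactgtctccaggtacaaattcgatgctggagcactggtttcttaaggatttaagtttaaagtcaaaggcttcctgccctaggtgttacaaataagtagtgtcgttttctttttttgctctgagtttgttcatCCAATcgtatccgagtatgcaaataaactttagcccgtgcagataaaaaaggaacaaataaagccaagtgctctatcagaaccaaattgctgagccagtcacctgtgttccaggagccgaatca
ALDH3A2 upstream start, chr17:19647886-19648185, plus strand: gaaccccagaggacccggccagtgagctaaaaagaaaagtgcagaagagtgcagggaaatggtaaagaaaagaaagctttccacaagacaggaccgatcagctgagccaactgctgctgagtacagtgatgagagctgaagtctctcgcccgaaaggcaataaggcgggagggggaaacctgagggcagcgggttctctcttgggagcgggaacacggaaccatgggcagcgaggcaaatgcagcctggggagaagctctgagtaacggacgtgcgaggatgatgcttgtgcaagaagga
ALDH3A2 downstream start, chr17:19648501-19648800, plus strand: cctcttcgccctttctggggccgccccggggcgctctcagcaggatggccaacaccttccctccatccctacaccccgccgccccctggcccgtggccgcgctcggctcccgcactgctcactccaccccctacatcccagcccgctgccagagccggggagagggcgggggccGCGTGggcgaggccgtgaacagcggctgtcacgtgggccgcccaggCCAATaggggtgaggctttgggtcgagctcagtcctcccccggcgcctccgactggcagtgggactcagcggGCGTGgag
ALDH3B1, chr11:68008297-68008596, plus strand: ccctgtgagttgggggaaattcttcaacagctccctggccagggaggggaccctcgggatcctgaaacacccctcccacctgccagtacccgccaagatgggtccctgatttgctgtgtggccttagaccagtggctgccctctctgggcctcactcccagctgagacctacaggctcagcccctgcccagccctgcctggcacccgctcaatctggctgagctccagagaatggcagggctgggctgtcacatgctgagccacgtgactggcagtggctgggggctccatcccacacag

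The motifs were the TATA box (TATAAA), the CCAAT box (CCAAT), the core of the antioxidant response element (TGACNNNGC), the core of the AHR response element (GCGTG) and a nuclear receptor half-site (AGGTCA), and no pair of them overlapped in the windows shown. The ALDH1A1 window held 1 match, a CCAAT box starting 74 bases before the start. The downstream ALDH3A2 window held a CCAAT box 30 bases before the start and AHR cores at 76 bases before and 42 bases after it. The upstream ALDH3A2 window and the ALDH3B1 window held none of these letters. Among the 12 windows of members in the table, 6 held a CCAAT box, 3 an AHR core, 1 a TATA box, 1 a half-site and 0 the antioxidant core. The shares over all 35116 windows in the table were 34.6%, 36.5%, 11.5%, 13.8% and 13.3% in the same order of motifs. Matches are descriptions of sequence only.

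ALDH1A1, the cytosolic retinaldehyde dehydrogenase, was the most abundant ALDH gene per length. Its level was 586, 600.5 and 604 FPKM in the OE-labelled libraries, against 706, 695 and 686 FPKM in the EV-labelled ones. By mean FPKM over the 6 libraries it ranked 24 among 19930 protein-coding genes. It made up 91.9 ± 0.148% of the summed FPKM of the 10 members in the OE-labelled libraries and 92.5 ± 0.048% in the EV-labelled ones (SD, n = 3 each). Of the summed FPKM of all 19 ALDH genes it made up 77.0 ± 0.553% in the OE-labelled libraries and 78.1 ± 0.58% in the EV-labelled ones.

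The other members followed far behind on the per-length scale. By mean FPKM over the 6 libraries, ALDH1B1 stood at 30.6, ALDH2 at 11.4, ALDH3A2 at 10.9, ALDH1A2 at 0.965, ALDH3B1 at 0.592, ALDH8A1 at 0.130 and ALDH3A1 at 0.0918. ALDH1A3 (0.0069) and ALDH1L1 (0.00136) were near the floor. The 6-library ranges of neighbours in the order among all 19 ALDH genes overlapped for ALDH1B1 with ALDH4A1 and with ALDH9A1, for ALDH2 with ALDH3A2, for ALDH7A1 with ALDH16A1, for ALDH1A2 with ALDH3B1, for ALDH8A1 with ALDH3A1 and for ALDH3B2 with both ALDH1A3 and ALDH1L1. Overlap of ranges over both labels does not fix the order within a library: ALDH1A2 was above ALDH3B1 in all 6 libraries, and ALDH3A2 was above ALDH2 in all 3 OE-labelled libraries and below it in all 3 EV-labelled ones. The place of ALDH3A2 rests on gene length: the deposited FPKM imply 15331 bases for it, whereas its GENCODE v29 exons cover 6457 bases, on which its mean would be 25.9 FPKM, above ALDH2. For every other ALDH gene the lengths behind the FPKM were within 0.924 to 1.12 times those of GENCODE v29.

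**Figure D1:**
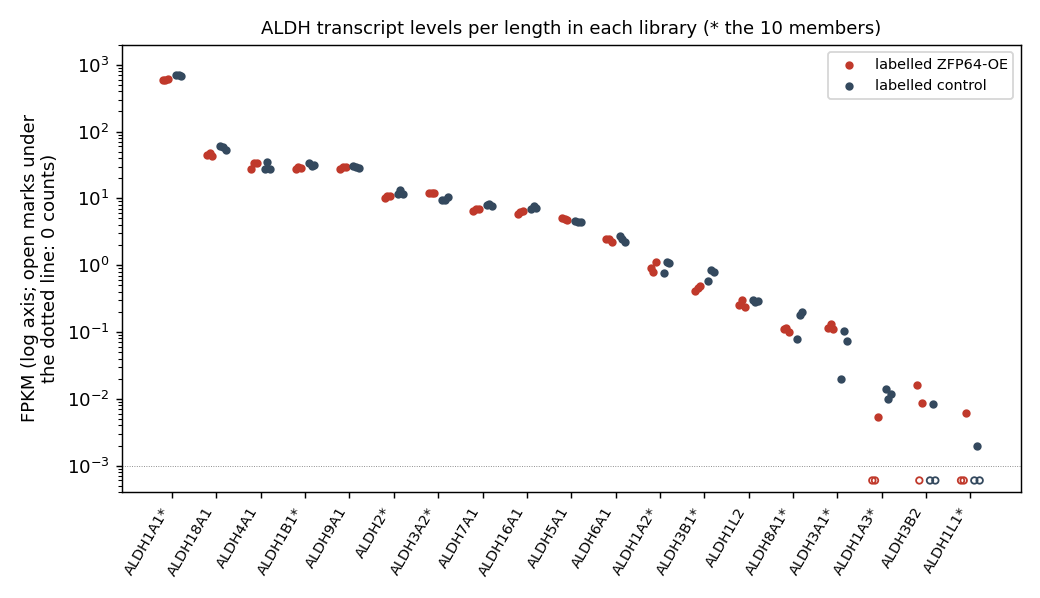
FPKM on a log axis for all 19 ALDH genes, ordered by mean, with 3 OE-labelled libraries on the left and 3 EV-labelled ones on the right of each gene; asterisks mark the 10 members and open marks a count of 0. ALDH1A1 lies between 586 and 706 FPKM, above the other ALDH genes, the next of which, ALDH18A1, reaches 60.1 FPKM.

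Of the 10 members, 8 had enough counts to be tested, 1 rose (ALDH3A2), 1 fell (ALDH3B1) and 6 did not pass (edgeR's quasi-likelihood test, Benjamini-Hochberg adjusted p under 0.05). Over all 19173 genes tested, 5.81% passed, 1.78% higher and 4.03% lower, and with 8 genes a single call in each direction says little about the members as a group. The median log2 fold change of the 8 was -0.16, against -0.02 over all genes tested. The groups did not overlap in CPM for 4 of the 8, with ALDH3A2 and ALDH3A1 higher and ALDH1A1 and ALDH3B1 lower, where 21.9% of all genes tested did not overlap, 9.16% with OE-labelled libraries higher and 12.8% with them lower. Counts over the 8 leave out ALDH1A3 and ALDH1L1, which were too low to test.

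**Figure D2:**
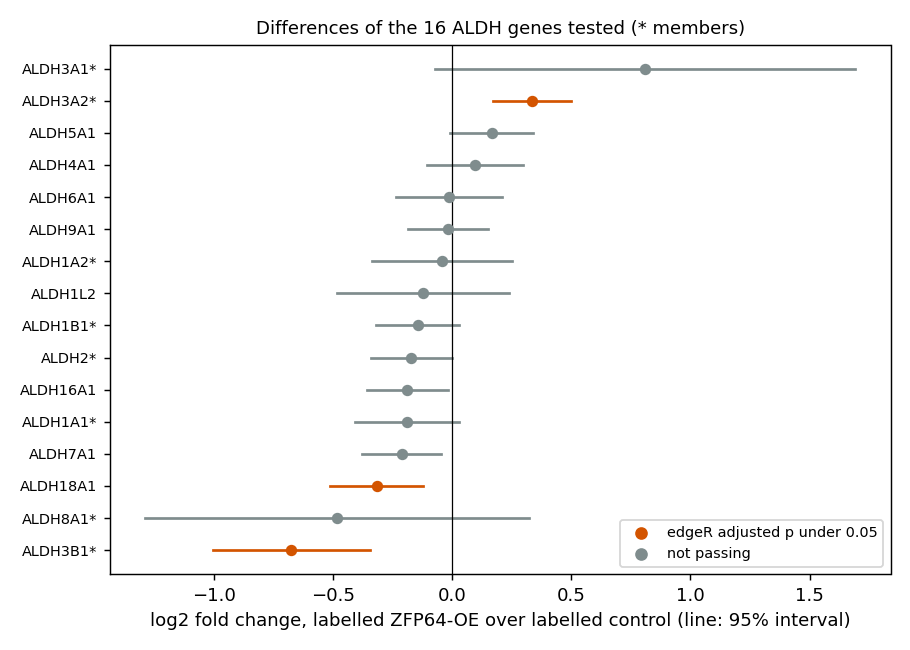
Log2 fold change (OE-labelled libraries over the EV-labelled ones, horizontal axis) with its 95% interval for the 16 ALDH genes tested; orange marks an edgeR adjusted p under 0.05. ALDH3A2 (0.34) lies to the right of 0, ALDH3B1 (-0.67) and ALDH18A1 (-0.32) to the left, and the other 13 did not pass.

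Among the retinaldehyde dehydrogenases, ALDH1A1 (ENSG00000165092, chromosome 9, 72900662 to 73080442, minus strand, GRCh38) was measured at 1700.0, 1744 and 1705 CPM in the OE-labelled libraries, against 2085, 1928 and 1863 CPM in the EV-labelled ones. All 3 OE-labelled libraries lay below all 3 EV-labelled ones, with a narrower spread among the OE-labelled ones. The log2 fold change was -0.19 (standard error 0.105, 95% interval -0.41 to 0.03), and the test was not passed (edgeR adjusted p = 0.343). Under the 13 alternative settings its log2 fold change stayed between -0.22 and -0.14 and its adjusted p between 0.165 and 0.666. Each library held between 53107 and 74002 counts of it.

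ALDH1A2, the form that makes most retinoic acid in the embryo, was at 7.47, 6.61 and 9.12 CPM in the OE-labelled libraries and 6.48, 8.75 and 8.51 CPM in the EV-labelled ones. The groups overlapped (log2 fold change -0.04, 95% interval -0.34 to 0.25, edgeR adjusted p = 0.91). ALDH1A2 (chromosome 15, 57953424 to 58497866) shares 354 exon bases with AQP9 on the other strand, which had 52 counts in all against 1640 for ALDH1A2. ALDH1A3, the remaining form, had 0, 0 and 1 counts in the OE-labelled libraries and 2 in each EV-labelled library. All 6 are under a floor of 3 counts per library, which corresponds to between 0.0755 and 0.113 CPM, so no fold is given.

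The genes of retinoid handling that passed the test were all higher in the OE-labelled libraries. Below, a mean ± SD is over the 3 libraries of a label, and a number in parentheses before an edgeR adjusted p is a log2 fold change. Of 24 listed genes of the retinoid pathway, 17 were tested, 4 rose, 0 fell and 13 did not pass, with a median log2 fold change of 0.01. RBP4, the plasma carrier of retinol, was at 148, 165 and 168 CPM in the OE-labelled libraries and 112, 115 and 103 CPM in the EV-labelled ones (log2 fold change 0.54, edgeR adjusted p = 0.00024). RDH10, which oxidises retinol to the retinaldehyde that ALDH1A enzymes use, was at 128 ± 4.87 CPM with OE labels against 95.9 ± 9.74 CPM with EV labels (0.42, edgeR adjusted p = 0.00359). STRA6, the cell's receptor for retinol-loaded RBP4, was at 8.61 ± 0.28 CPM with OE labels against 5.77 ± 0.485 CPM with EV labels (0.58, edgeR adjusted p = 0.00479). The fourth riser was RARB, a retinoic acid receptor (0.41, edgeR adjusted p = 0.0122), whose call was lost in edgeR without OE-labelled replicate 1 or 2 or EV-labelled replicate 2 (highest adjusted p = 0.0728). CYP26A1, which degrades retinoic acid, was at 0.922 ± 0.306 CPM with OE labels against 1.15 ± 0.536 CPM with EV labels and did not pass (edgeR adjusted p = 0.627). It had between 22 and 67 counts per library, and its log2 fold change lay between -0.61 and 0.12 under the alternatives that kept it. With limma on log2 FPKM, 2 genes of the list passed higher. Without EV-labelled replicate 3, 1 gene of the list, RARG, passed lower.

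**Figure D3:**
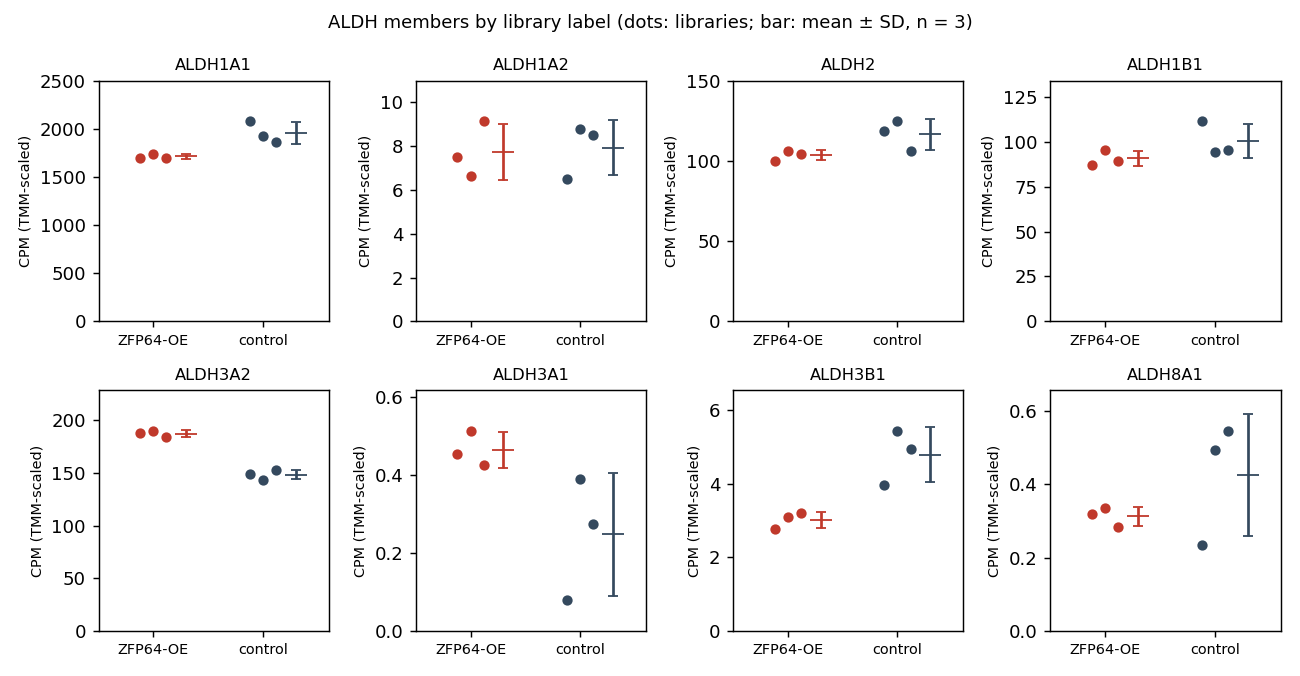
TMM-scaled CPM (vertical axes, from 0) of the 8 members tested, in 3 OE-labelled libraries (left of each panel) and 3 EV-labelled ones (right), with mean ± SD beside the dots. The groups are apart for ALDH1A1, ALDH3A2, ALDH3A1 and ALDH3B1 and overlap for ALDH1A2, ALDH2, ALDH1B1 and ALDH8A1.

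The mitochondrial pair, ALDH2 and ALDH1B1, did not pass. ALDH2, the main acetaldehyde oxidiser of the liver (chromosome 12, 111766887 to 111817529), was at 100.5, 107 and 105 CPM in the OE-labelled libraries and 119, 125 and 106 CPM in the EV-labelled ones. The groups overlapped by a single EV-labelled library. The log2 fold change was -0.17 (unadjusted p = 0.0495, 95% interval -0.34 to -0.00041, edgeR adjusted p = 0.261). ALDH1B1, its close relative, which also acts on acetaldehyde (chromosome 9, 38392664 to 38398661), was at 86.9, 95.4 and 89.5 CPM in the OE-labelled libraries and 111, 94.2 and 95.1 CPM in the EV-labelled ones, with overlap (log2 fold change -0.14, 95% interval -0.32 to 0.03, edgeR adjusted p = 0.371). On the FPKM scale, which is not corrected for library composition, neither gene overlapped: ALDH2 lay between 10.1 and 10.8 FPKM in the OE-labelled libraries and between 11.5 and 13.2 FPKM in the EV-labelled ones, and ALDH1B1 between 27.3 and 29.9 FPKM in the OE-labelled libraries and between 31 and 34.4 FPKM with EV labels.

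Enzymes that can make acetaldehyde from ethanol stood higher in the OE-labelled libraries where they passed. Of 11 listed genes of ethanol and acetaldehyde handling, 8 were tested, 5 rose (ADH1A, ADH1C, ADH4, ADH6 and CAT), 0 fell and 3 did not pass (median log2 fold change 0.34). Over all genes tested, 1.78% passed higher. ADH5, the listed gene with the highest CPM, did not pass (-0.14, edgeR adjusted p = 0.414). It was at 249 ± 18 CPM with OE labels against 275 ± 17.3 CPM with EV labels. ADH1B, ADH7 and CYP2E1 were too low to test, so the list does not show how ethanol oxidation as a whole differed. The alcohol dehydrogenase ADH1C was at 15.8, 17.7 and 16.5 CPM in the OE-labelled libraries and 5.73, 7.24 and 6.35 CPM in the EV-labelled ones (1.36, edgeR adjusted p = 6.73e-08). CAT, the catalase that can oxidise ethanol in peroxisomes, was at 135 ± 2.21 CPM with OE labels against 104 ± 6.57 CPM with EV labels (0.38, edgeR adjusted p = 0.00449). ADH1A was at 1.45 ± 0.502 CPM with OE labels against 0.553 ± 0.25 CPM with EV labels (1.33, edgeR adjusted p = 0.0178). ADH1A and ADH1C are near-identical genes whose reads the counting could split, so their values are uncertain. The ADH1A call was lost without OE-labelled replicate 2 or 3 or EV-labelled replicate 1 or 2. The number of risers was 2 without OE-labelled replicate 2, 3 without EV-labelled replicate 2 or 3 and 2 with limma on log2 FPKM. The acetate-activating ACSS1 had a log2 fold change of -0.52 and did not pass (edgeR adjusted p = 0.141), but passed lower without OE-labelled replicate 3 and with the replicate block.

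ALDH3A2 was the member that rose. It encodes the fatty aldehyde dehydrogenase of the endoplasmic reticulum, which oxidises long-chain aldehydes released from sphingosine 1-phosphate and plasmalogens and is lost in Sjögren-Larsson syndrome. ALDH3A2 (ENSG00000072210, chromosome 17, 19648136 to 19677598, plus strand, GRCh38) was at 188, 190.2 and 184 CPM in the OE-labelled libraries, against 149, 144 and 153 CPM in the EV-labelled ones. The lowest OE-labelled library stood well above the highest EV-labelled one, and the spread within each group was small. The means were 187 ± 3.24 CPM with OE labels and 148 ± 4.5 CPM with EV labels (SD, n = 3 each), with the OE-labelled libraries 26.2% higher in the fit. The log2 fold change was 0.34 (standard error 0.0788, 95% interval 0.17 to 0.50, edgeR adjusted p = 0.0127), and it ranked 591 of 19173 by p. The call was lost without OE-labelled replicate 2 (adjusted p = 0.0886), without EV-labelled replicate 2 (adjusted p = 0.0816) and with limma on log2 FPKM (adjusted p = 0.053), with the log2 fold change between 0.30 and 0.37 under all 13 alternatives. Its share of the summed FPKM of the 10 members was 1.86 ± 0.0234% in the OE-labelled libraries, against 1.30 ± 0.0921% in the EV-labelled ones. With GENCODE v29 exon lengths its share over the 6 libraries would be 3.63%.

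Genes that make or share its substrates moved in both directions. Of 10 symbols listed as fatty aldehyde sources, 9 were found and tested, 2 rose, 1 fell and 6 did not pass (median log2 fold change 0.09). The symbol not found, PEDS1, is another name of TMEM189, which was tested. PHYH, which starts the breakdown of phytanic acid, was at 162 ± 4.64 CPM with OE labels against 126 ± 5.93 CPM with EV labels (0.36, edgeR adjusted p = 0.00714). AGMO, which cleaves alkyl ether lipids to fatty aldehydes, was at 17.8 ± 0.811 CPM with OE labels against 13.7 ± 1.14 CPM with EV labels (0.38, edgeR adjusted p = 0.0241). SPHK1, which makes sphingosine 1-phosphate, was at 14.3, 18.4 and 19 CPM in the OE-labelled libraries and 25.5, 29.5 and 27.7 CPM in the EV-labelled ones and fell by a log2 value of 0.68 (edgeR adjusted p = 0.00021). SGPL1, the lyase that turns sphingosine 1-phosphate into a fatty aldehyde, was at 112 ± 5.18 CPM with OE labels against 103 ± 5.43 CPM with EV labels and did not pass (adjusted p = 0.436 with edgeR). The number of risers was 0 without OE-labelled replicate 2, 1 without EV-labelled replicate 1 and 1 with limma on log2 FPKM.

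ALDH3A1, the cytosolic relative known from the cornea and from induction by ligands of the aryl hydrocarbon receptor, lies 60385 bases from ALDH3A2 with SLC47A2 between them. It was scarcely detected, with 17, 20 and 15 counts in the OE-labelled libraries and 2, 15 and 9 in the EV-labelled ones. These are 0.453, 0.515 and 0.425 CPM with OE labels against 0.0785, 0.391 and 0.273 CPM with EV labels, so all 3 OE-labelled libraries were higher, by a margin that is small beside the spread among the EV-labelled libraries. The log2 fold change of 0.81 had a 95% interval of -0.07 to 1.69 and did not pass (edgeR adjusted p = 0.315). Without EV-labelled replicate 1 its log2 fold change was 0.47, and without EV-labelled replicate 2 it was 1.30.

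Genes of the NRF2 and AHR systems, which control ALDH3A1 and other aldehyde-clearing enzymes, were examined as a list. Of the 14 genes listed, AHRR stood on more than 1 row and was left out, 11 were tested, 4 rose, 0 fell and 7 did not pass (median log2 fold change 0.11). The risers named by rule were NRF2 targets. HMOX1, haem oxygenase, was at 236 ± 16.8 CPM with OE labels against 166 ± 14.7 CPM with EV labels (0.50, edgeR adjusted p = 0.00116). GCLC and GCLM, the subunits of the enzyme that starts glutathione synthesis, were at 158 ± 4.35 CPM with OE labels against 117 ± 4.52 CPM with EV labels and 306 ± 18.7 CPM with OE labels against 220 ± 20.9 CPM with EV labels (0.43 and 0.48, edgeR adjusted p = 0.00129 and 0.0025). Another NRF2 target, NQO1, did not pass (376 ± 15.8 CPM with OE labels against 363 ± 10.3 CPM with EV labels, edgeR adjusted p = 0.812), nor did CYP1A1, the classical AHR target (48.9 ± 0.555 CPM with OE labels against 46.5 ± 4.91 CPM with EV labels, edgeR adjusted p = 0.683).

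ALDH3B1 was the member that fell. It encodes a membrane-bound enzyme that oxidises aldehydes derived from lipid peroxidation. ALDH3B1 (ENSG00000006534, chromosome 11, 68008578 to 68029282, plus strand, GRCh38) was at 2.77, 3.09 and 3.20 CPM in the OE-labelled libraries, against 3.96, 5.44 and 4.95 CPM in the EV-labelled ones. The groups did not overlap, and the EV-labelled libraries varied more. The means were 3.02 ± 0.221 CPM with OE labels and 4.79 ± 0.753 CPM with EV labels (SD, n = 3 each), and in the fit the level fell by 37.3%. The log2 fold change was -0.67 (standard error 0.158, 95% interval -1.004 to -0.34, edgeR adjusted p = 0.0124). The call was lost without OE-labelled replicate 1 (adjusted p = 0.0589), without EV-labelled replicate 2 (adjusted p = 0.118) and with limma on log2 FPKM (adjusted p = 0.159), with the log2 fold change between -0.78 and -0.57 under all 13 alternatives. Counts were 104, 120 and 113 with OE labels against 101, 209 and 163 with EV labels. An antisense gene, AC004923.4, overlaps it with 0 shared exon bases and had 178 counts in all. Its similar copy ALDH3B2, 327377 bases away, had at most 2 counts in any library.

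Other enzymes that remove reactive aldehydes also moved in both directions. Of 15 listed genes, 13 were tested, 4 rose, 1 fell and 8 did not pass (median log2 fold change -0.01). AKR1C1, an aldo-keto reductase, was at 111 ± 8.26 CPM with OE labels against 73.7 ± 3.73 CPM with EV labels (0.59, edgeR adjusted p = 6.48e-05), though its reads can be shared with AKR1C2 and AKR1C3, near-identical copies that also rose (edgeR adjusted p = 0.0447 and 0.0417). AKR1B10, a reductase of retinaldehyde and other aldehydes often raised in liver cancer, was at 1.598 ± 0.199 CPM with OE labels against 0.890 ± 0.18 CPM with EV labels (0.85, edgeR adjusted p = 0.0404). GSTA4, the glutathione transferase for the lipid aldehyde hydroxynonenal, was at 31.3, 32.2 and 33.9 CPM in the OE-labelled libraries and 43.8, 45.9 and 43.2 CPM in the EV-labelled ones and fell by a log2 value of 0.45 (edgeR adjusted p = 0.000727). The number of risers was 2 without OE-labelled replicate 1 or 3 or EV-labelled replicate 3, and 1 without OE-labelled replicate 2, EV-labelled replicate 1 or 2, or with limma on log2 FPKM. The AKR1B10 call was lost with DESeq2, with limma on log2 FPKM and in edgeR without OE-labelled replicate 1 or 2 or EV-labelled replicate 1 or 2 (highest adjusted p = 0.265). That of AKR1C2 was lost whichever library was left out and with limma on log2 FPKM (highest adjusted p = 0.14). For AKR1C3 it was lost with both limma fits and with a filter of at least 1 CPM in 3 libraries. It was also lost in edgeR without OE-labelled replicate 2 or 3 or any EV-labelled replicate (highest adjusted p = 0.264).

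**Figure D4:**
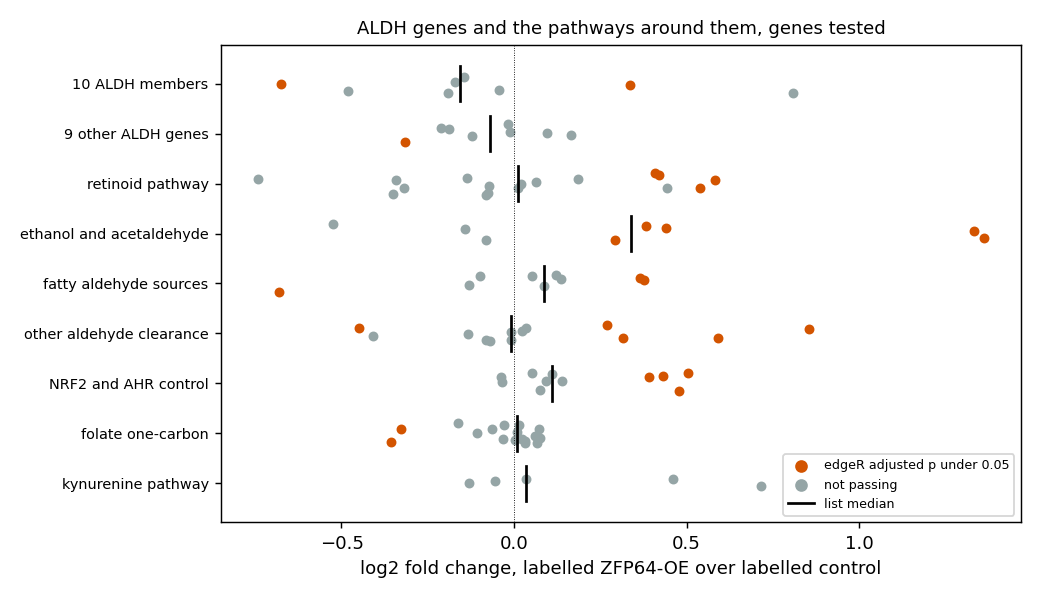
Log2 fold change (OE-labelled libraries over the EV-labelled ones) of each tested gene on the ALDH lists and the lists of surrounding pathways, 1 dot per gene, with a black bar at each list's median. Genes passing the test (orange) lie on both sides of 0 for the 10 members, the fatty aldehyde sources and the other clearance enzymes, right of 0 for the retinoid, ethanol and NRF2 lists, and left of 0 for the folate list.

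The last pair of members belong to folate and tryptophan metabolism and were low. ALDH1L1, which oxidises 10-formyltetrahydrofolate in the hepatocyte cytosol, had 0, 0 and 3 counts in the OE-labelled libraries and 0, 1 and 0 in the EV-labelled ones, at or under the floor of 3 counts in every library. Of 17 genes of folate metabolism, all tested, 0 rose, 2 fell and 15 did not pass. TYMS, thymidylate synthase, was at 46.2 ± 2.34 CPM with OE labels against 58.1 ± 4.29 CPM with EV labels and fell by a log2 value of 0.33 (edgeR adjusted p = 0.0163), and FPGS, which adds glutamates to folate, was at 30.7 ± 3.1 CPM with OE labels against 39.3 ± 4.23 CPM with EV labels and fell by 0.36 (edgeR adjusted p = 0.0259). The number of fallers was 0 without OE-labelled replicate 2 and 1 without OE-labelled replicate 1, without EV-labelled replicate 1 or replicate 2 or with limma on log2 FPKM.

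ALDH8A1, which acts on an intermediate of the kynurenine pathway, had 12, 13 and 10 counts in the OE-labelled libraries and 6, 19 and 18 in the EV-labelled ones. These are 0.320, 0.334 and 0.283 CPM with OE labels against 0.236, 0.495 and 0.547 CPM with EV labels, and the OE-labelled libraries lay within the range of the EV-labelled ones. The log2 fold change was -0.48 with a 95% interval of -1.29 to 0.32 (edgeR adjusted p = 0.548). Of the 9 listed kynurenine genes, 5 were tested and 0 passed with edgeR, 2 having an unadjusted p under 0.05. None passed with DESeq2 or limma either, and 1 passed with the replicate block. ACMSD, which makes the aldehyde that ALDH8A1 oxidises, was at 1.501 ± 0.17 CPM with OE labels against 0.895 ± 0.24 CPM with EV labels (log2 fold change 0.72, unadjusted p = 0.00889 and adjusted p = 0.101 with edgeR). TDO2, the hepatic entry enzyme, was under 0.1 CPM in either group, and IDO1 had no count.

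The 9 remaining ALDH genes were mostly amino acid enzymes. Of them 8 were tested, 0 rose, 1 fell and 7 did not pass. ALDH18A1, the proline-synthesis enzyme and the second most abundant ALDH gene, was at 170.4, 183 and 159 CPM in the OE-labelled libraries and 235, 216 and 188 CPM in the EV-labelled ones. It fell by 0.32 on the log2 scale at the edge of the threshold (edgeR adjusted p = 0.0499), and the call was lost without any single library other than EV-labelled replicate 3, with RLE scaling and with limma on log2 FPKM (adjusted p between 0.069 and 0.144). ALDH7A1, which acts in lysine breakdown, was at 123 ± 4.59 CPM with OE labels against 142 ± 7.47 CPM with EV labels with no overlap, and did not pass (edgeR adjusted p = 0.140). ALDH16A1, an unusual member with a duplicated catalytic region, was at 28.9 ± 1.24 CPM with OE labels against 32.9 ± 1.82 CPM with EV labels with no overlap and did not pass (edgeR adjusted p = 0.203). ALDH4A1 (proline breakdown), ALDH5A1 (breakdown of the transmitter GABA), ALDH6A1 (valine breakdown), ALDH9A1 (carnitine synthesis) and ALDH1L2 (the mitochondrial counterpart of ALDH1L1) overlapped between the groups, with log2 fold changes between -0.12 and 0.17. Exons of ALDH5A1, ALDH6A1, ALDH16A1, ALDH1L2 and ALDH9A1 overlap those of genes on the other strand. Reads there cannot be told apart without a strand setting. The overlapping gene had more counts in all for ALDH1L2 (C12orf45, 5027 against 548) and ALDH16A1 (PIH1D1, 9366 against 6420). It had fewer for ALDH5A1, ALDH6A1 and ALDH9A1. Exons of ALDH4A1 share 1517 bases with AL080251.1 on the same strand. ALDH3B2 was too low to test. Of the 16 ALDH genes tested, 12 had a log2 fold change below 0. The share of all genes tested that lay below 0 was not computed, and their median was -0.02. Of the 12, ALDH1A2, ALDH6A1 and ALDH9A1 changed sign under the alternative settings (-0.17 to 0.06, -0.10 to 0.09 and -0.056 to 0.050).

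The summed FPKM of the 10 members was 637, 655 and 658 in the OE-labelled libraries, against 763, 751 and 742 in the EV-labelled ones. No OE-labelled library reached any EV-labelled one. The log2 ratio of the means was -0.21, and the two-sided exact permutation test gave p = 0.1, the smallest that 3 against 3 libraries allow. Since ALDH1A1 makes up most of the sum, the sum without it was set beside it. That sum was 50.9, 54.3 and 53.6 FPKM in the OE-labelled libraries and 57, 56 and 56 FPKM in the EV-labelled ones. The log2 ratio was -0.09 (exact p = 0.1). It rests on the deposited lengths: on GENCODE v29 exons ALDH3A2, the member that rose, would count 2.37 times as much. The sum was not recomputed on those lengths, so a fall of the members beyond ALDH1A1 is not settled. FPKM divides by the library total, in which mitochondrial mRNAs weighed more in the OE-labelled libraries; after rescaling by TMM factors the log2 ratio of the sum of 10 was -0.18.

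**Figure D5:**
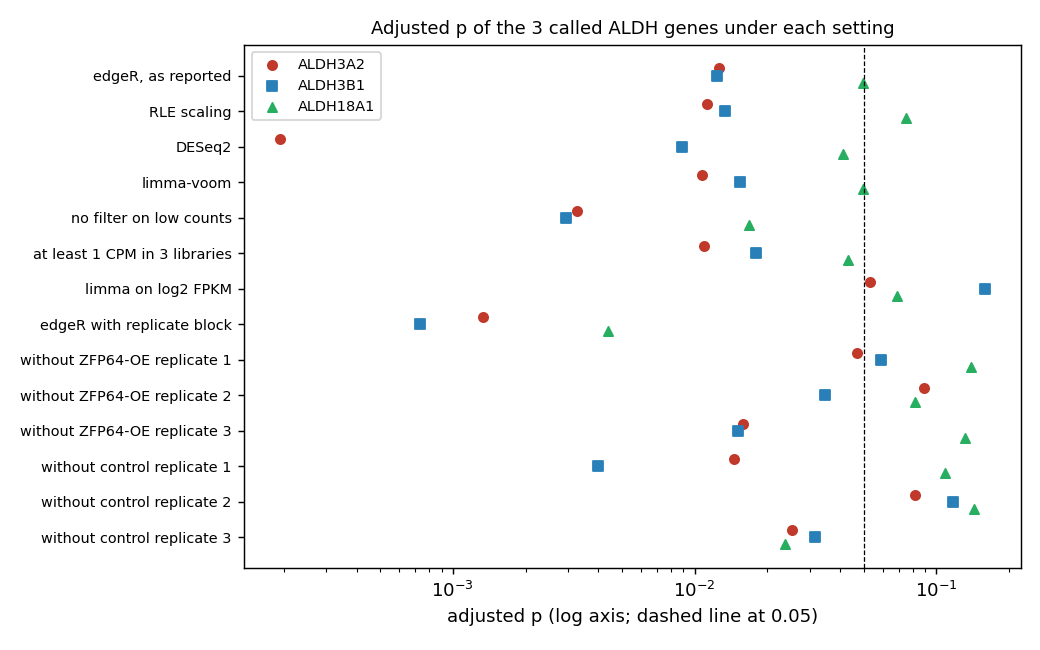
Adjusted p (log axis, dashed line at 0.05) of ALDH3A2, ALDH3B1 and ALDH18A1 in the edgeR fit reported and in 13 alternative settings. ALDH3A2 and ALDH3B1 each lie left of the line in 10 of the 13 alternatives and ALDH18A1 in 6.

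The protein-coding genes most like the called members were sought among 10264 with a mean of at least 5 CPM, by the root mean square difference of centred log2 CPM over the 6 libraries. For ALDH3A2 they were MOSPD1 (0.0330), CCPG1 (0.0338) and ABCC5 (0.0348), with log2 fold changes of 0.34, 0.31 and 0.28. For ALDH3B1 they were CACNG8 (0.0604), BST2 (0.0729) and SIVA1 (0.0835), with log2 fold changes of -0.60, -0.50 and -0.47. The likeness rests on libraries that fall into 2 labelled groups and is a description only.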

How the data were processed

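RNA-seq of PLC/PRF/5 cells was deposited as a table of counts and a table of FPKM, with 1 column per library, assigned by the column codes in the sample titles. Libraries were TruSeq RNA preparations of Trizol-extracted RNA, per the labels' protocols. The submitters' processing notes name HISAT2 and GRCh38; counting program, annotation, strand setting and filters were not given in the sources read. The deposited counts are raw whole numbers per Ensembl gene. The deposited FPKM values are those counts divided by the authors by gene length and library total: the implied length of 24388 genes counted in every library was constant within a relative spread of 1.03e-14.

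Differences were tested with edgeR 4.0.16 (R 4.3.3): filterByExpr (count 10, total 15) left 19173 of 60623 genes, TMM scaling, robust dispersions, and the quasi-likelihood F-test on group alone, with Benjamini-Hochberg adjustment over all genes kept. The biological coefficient of variation was 0.0857. CPM are relative to the counts of kept genes times the TMM factor (0.963 to 1.05). Standard errors were obtained from F and the log2 ratio, and intervals are at 95%. The scripts were tested on simulated counts. Alternatives were RLE scaling, DESeq2 1.42.0, limma 3.58.1 (voom, and log2 of FPKM plus 0.1), other filters, a replicate block and leaving out each library. Libraries within groups were not duplicates (chi-square per gene at least 10.2 for every pair), so each counted as 1 sample. Sums were compared by exact permutation. Intervals and floors cover counting and library spread only.

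Positions and exon overlaps came from GENCODE v29 on GRCh38, and promoters from RefSeq (GRCh38.p14). The 10 members and the pathway lists were chosen with earlier results of these data known. Genes named were all 19 ALDH genes, ZFP64, per pathway list the 3 or fewer called genes of smallest p, and the 3 genes most like the member with the smallest p in each direction. RARB, CYP26A1, RARG, ADH4, ADH6, ACSS1, SGPL1, AKR1C2, AKR1C3, NQO1, CYP1A1, ACMSD, TDO2, IDO1 and the marker genes were named after their values were seen. The same holds for ADH5, ADH1B, ADH7, CYP2E1 and TMEM189.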

Additional observations from a re-analysis of the deposited data

How the results depend on the processing

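Of the 16 tested ALDH genes, only ALDH3A2, ALDH3B1 and ALDH18A1 passed in any setting, and each kept its direction in all 13 alternatives. The rest passed in no setting, and among them ALDH1A2, ALDH6A1 and ALDH9A1 changed sign between settings. Among the 10 members the riser and the faller were each lost (0 genes) with limma on log2 FPKM, and leaving out each library in turn gave between 0 and 1 risers and between 0 and 1 fallers; the cause was not tested. Calls over all genes were 1114 as reported, 470 with limma on log2 FPKM, 2096 with a replicate block and between 587 and 1535 when a library was left out. Same-numbered libraries had correlations of their deviations from the group means of 0.244, 0.0951 and 0.134. Deviations from a mean of 3 libraries sum to 0, so these correlations cannot settle whether the replicate numbers pair the libraries. No library correlated best with its own number. OE-labelled replicates 1, 2 and 3 correlated best with EV-labelled replicates 3, 1 and 2 (0.282, 0.384 and 0.487). With the block 1 member rose and 1 fell, as without it, and 1 retinoid gene, 1 ethanol gene (both lower) and 1 kynurenine gene (higher) were added. On the deposited gene lengths, the log2 ratio of the summed FPKM stayed negative under every alternative. It was -0.18 with TMM rescaling, -0.20 over all 19 ALDH genes and between -0.22 and -0.20 without single libraries. The GENCODE lengths for the order of levels were chosen after seeing the data. ALDH3A1 and ALDH8A1 had 20 counts or fewer per library, and what depth and library spread each add to their wide intervals was not tested. ALDH1A3, ALDH1L1 and ALDH3B2 had too few counts to be tested.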
